A study of Mus musculus with 3 samples.

Results

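The genes described here are 46 interferon-stimulated genes and the 4 genes that encode the receptor chains for type I interferon and for interferon-gamma, measured by RNA sequencing in mouse granulocyte progenitors. They were taken by gene symbol and leave out the IRF, PYHIN, Schlafen, IFITM and MHC families. All 50 were found among the 24421 symbols measured. Granulocyte progenitors are bone marrow precursors committed to making granulocytes, and here they were purified from female animals by flow sorting. There were 3 libraries, 1 per group. The 4T1-TB library came from F1 mice (H-2b/d) that carried the 4T1 mammary carcinoma line as an orthotopic implant. The IRF8-deficient library came from C57BL/6 mice (H-2b) with a genetic deficiency of the transcription factor IRF8, and the labels name no tumor for it. The NTB library, the control, came from F1 mice (H-2b/d) with neither tumor nor IRF8 deficiency. IRF8 deficiency therefore comes with another strain background, and genotype and strain cannot be told apart in these data. The sources used here do not say how many mice each library pooled. With 1 library per group no difference could be tested, and every interval below covers counting error only, not the spread between animals.

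Interferons are cytokines that put cells into an antiviral state. Type I interferons bind a receptor made of IFNAR1 and IFNAR2, and interferon-gamma binds one made of IFNGR1 and IFNGR2. Both receptors act through JAK kinases on STAT transcription factors. Type I interferon yields a complex with STAT2 and IRF9 that binds the interferon-stimulated response element, while interferon-gamma acts through the gamma-activated site. The induced genes encode sensors of foreign RNA, enzymes and membrane proteins that hinder viral replication, and GTPases that attack the vacuoles of intracellular pathogens. IRF8 belongs to the same family of transcription factors as IRF9 and directs myeloid progenitors toward the monocyte and dendritic cell lineages.

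Levels are given as RPKM, read numbers divided by gene length in kilobases and by library size, in the authors' scaling. The libraries held 23556829 reads in 4T1-TB and 36325309 in IRF8-deficient, against 42574397 in NTB, as recovered from the RPKM values, and 34480, 57437 and 77265 of these reads lay on the 50 genes. Irf8 had an RPKM of 8.60 in 4T1-TB and 13.7 in IRF8-deficient, against 43.8 in NTB. The sources used here do not say which part of the gene is deleted, so a value for the whole gene does not check the genotype label. The sorted cell type was checked with 11 genes of granulocyte progenitors, among them Mpo and Elane for granule proteins, and each had an RPKM of at least 5 in every library. Their RPKM summed to 21024 in 4T1-TB and 10699 in IRF8-deficient, against 17642 in NTB, most of it from Mpo, Elane, Prtn3 and Ctsg. Cd34, a surface marker of early progenitors, was more than 2-fold lower in both, with 8.73 in 4T1-TB and 5.41 in IRF8-deficient, against 36.9 in NTB. Cebpe, a transcription factor of granule formation, had 108 in 4T1-TB and 255 in IRF8-deficient, against 77.4 in NTB, and Fcgr3 likewise was more than 2-fold above NTB in IRF8-deficient alone. The 18 listed genes of mature neutrophils summed to 14401 in 4T1-TB and 141164 in IRF8-deficient, against 10196 in NTB, and 17 of the 18 were at least 2-fold higher in IRF8-deficient than in NTB. In 4T1-TB 9 of the 18 were, among them Retnlg with 178 in 4T1-TB and 392 in IRF8-deficient, against 6.54 in NTB. Among the 10658 genes reaching an RPKM of 1 in any library, 8.78% were at least 2-fold higher in IRF8-deficient and 1.67% in 4T1-TB. Camp, Ngp and Ltf lay below NTB in 4T1-TB, and the other 15 of the list above it. Camp had 340 in 4T1-TB, against 546 in NTB, and Ngp had 424, against 632. S100a8 and S100a9 made up most of the neutrophil sum in each library. The ribosomal RNA precursor Rn45s took 6.28% of reads in 4T1-TB and 13.6% in IRF8-deficient, against 1.78% in NTB, and was singled out after its values were seen. In bulk RNA, more cells of a type and more RNA per cell cannot be told apart.

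Most of the 50 genes were expressed at a low to moderate level. An RPKM of 1 rested on about 65.2 reads in 4T1-TB, 76.6 in IRF8-deficient and 131 in NTB for a gene of median length. Their median RPKM was 4.46 in 4T1-TB and 8.05 in IRF8-deficient, against 5.67 in NTB, below the medians of 12.1, 12.5 and 12.1 over the 10658 genes compared, the genes that reached an RPKM of 1 in any library. Of the 50 genes, 43 met that minimum. It was met in every library by 34 of them, in 2 libraries by 5, and only in IRF8-deficient by 4 (Ifit1, Rsad2, Zbp1 and Rtp4). The 7 that stayed under an RPKM of 1 throughout were Ifit3, Mx1, Mx2, Usp18, Ifi44, Iigp1 and Oasl1. The IRF8-deficient library held the highest of the 3 values for 34 of the 50 genes, 4T1-TB for 6 and NTB for 10. 4T1-TB held the lowest value for 28 genes, IRF8-deficient for 10 and NTB for 12.

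**Figure D1:**
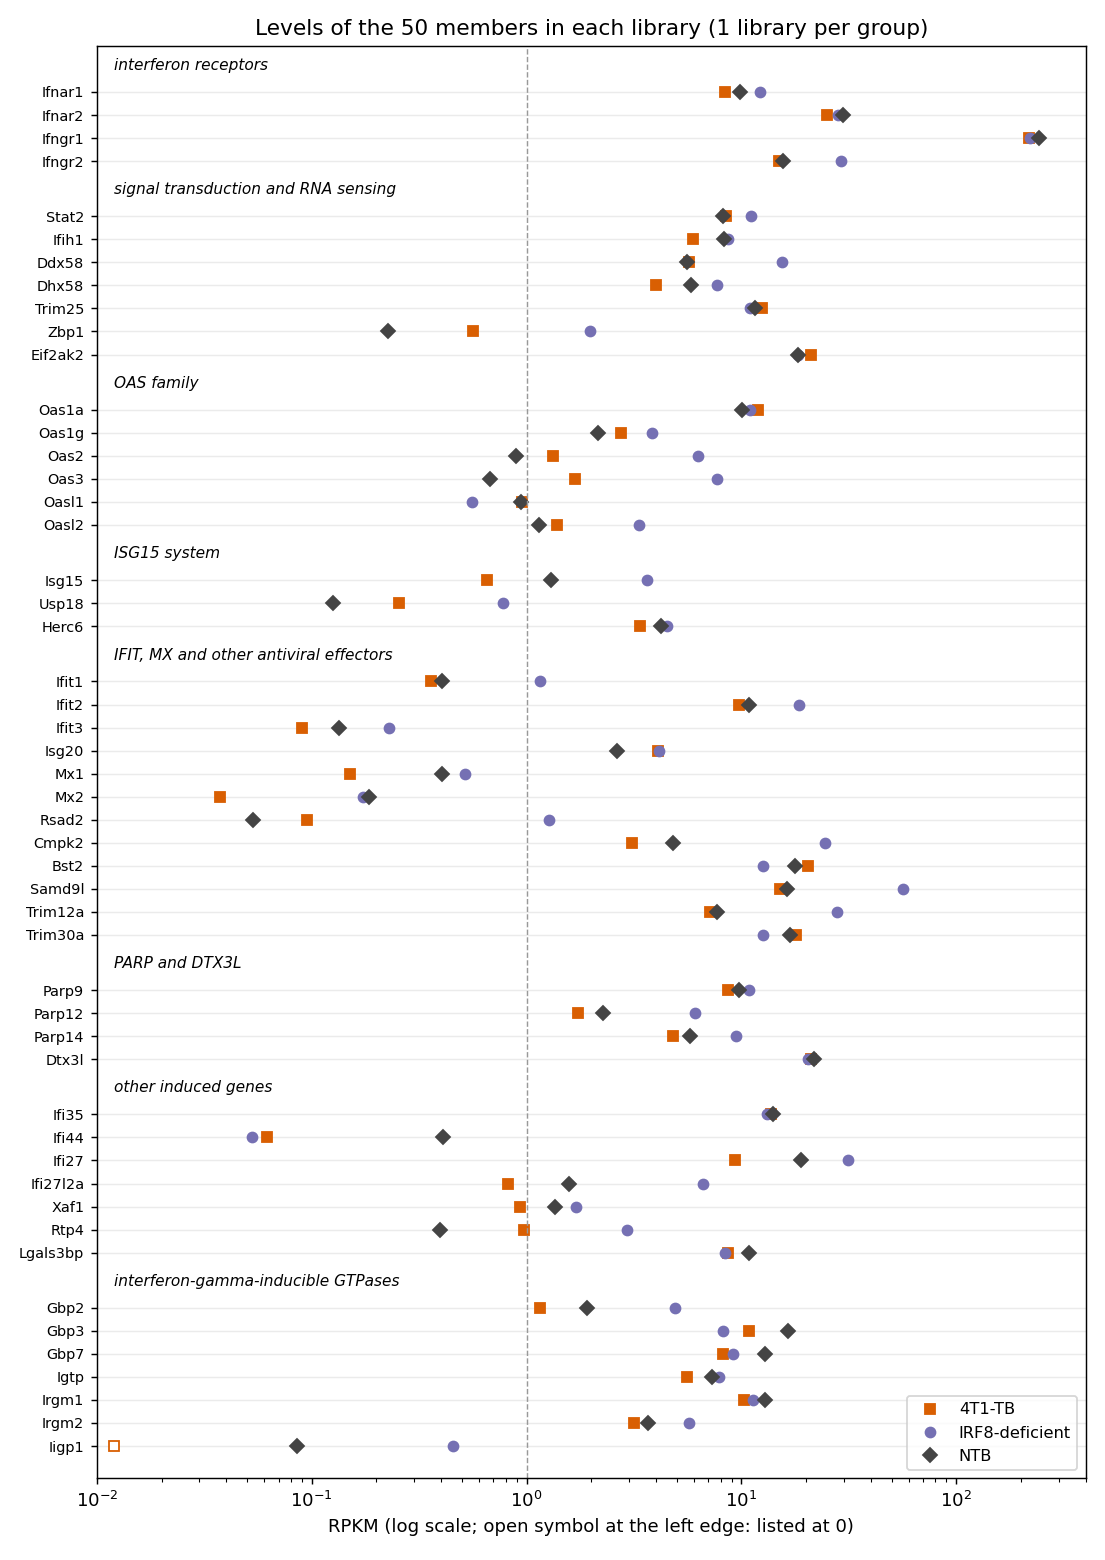
RPKM (log axis) of each of the 50 genes in the 4T1-TB, IRF8-deficient and NTB libraries, 1 point per library, grouped by function, with an open symbol for a gene listed at 0. The IRF8-deficient point is the rightmost for 34 genes, and Ifngr1 stands far to the right of all others in each library.

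The clearest differences lay in the IRF8-deficient library. The oligoadenylate synthetase genes Oas3 and Oas2 stood 11.4-fold and 7.06-fold above NTB there, and the nucleotide kinase gene Cmpk2 5.12-fold. Trim12a and Samd9l stood 3.64-fold and 3.46-fold above NTB in that library. Ifngr1, Ifnar2, Stat2 and Eif2ak2 stayed within 1.35-fold of NTB there. In the 4T1-TB library no gene of the set reached the 2-fold call defined here. The receptor, GTPase, PARP and DTX3L genes and Ifi27 were below NTB there, and all 6 OAS genes were above it. Counting intervals of some of these ratios included 1, among them those of Dtx3l, Ifngr2, Oasl1 and Oasl2. Differences between libraries were taken on log2(RPKM + 1), a scale that shrinks the differences of low genes, and a size of 1 or more on it, which is 2-fold, counted as a call. For 4T1-TB against NTB, none of the 43 genes compared was called in either direction, where 3.02% of all genes compared were called, 1.67% higher and 1.35% lower. Their median difference was −0.14, against 0.01 over all genes compared, and 28 of the 43 were below 0 (65.1%, against 49.0% of all genes compared). For IRF8-deficient against NTB, 14 of the 43 were called higher (32.6%) and none lower, where 8.78% of all genes compared were called higher and 5.73% lower. Their median difference was 0.50, against −0.02 over all genes compared. For IRF8-deficient against 4T1-TB, 12 of the 43 were called higher (27.9%) and none lower, where 8.83% and 7.07% of all genes compared were called higher and lower, and the median difference was 0.49. Of the genes called in IRF8-deficient against NTB, Rsad2, Zbp1 and Rtp4 reached the minimum only through the IRF8-deficient library and so had to be high there. Over all 50 genes without a minimum, 35 were above NTB in IRF8-deficient and 15 below, with a median of 0.38, and in 4T1-TB 17 were above and 33 below, with a median of −0.13. Any pair of these comparisons shares a library, so they are not independent.

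**Figure D2:**
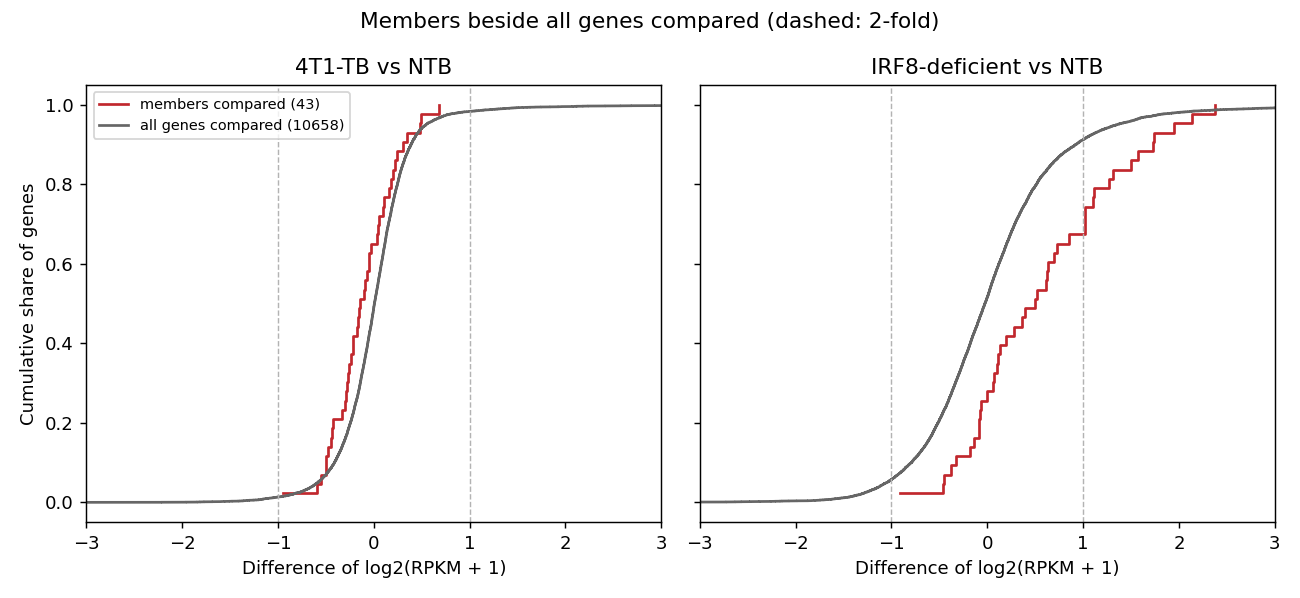
Cumulative share of genes against the difference of log2(RPKM + 1), for 4T1-TB against NTB and for IRF8-deficient against NTB, with the 43 interferon genes compared as a stepped line and all 10658 genes compared as a smooth line. In the 4T1-TB panel no step lies beyond the dashed 2-fold lines, and in the IRF8-deficient panel 14 steps lie at or beyond the upper line and none beyond the lower one.

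None of the 4 receptor genes was called in any comparison. Over all genes compared, 3.02% were called in either direction in 4T1-TB against NTB and 14.5% in IRF8-deficient against NTB. In IRF8-deficient against 4T1-TB 15.9% were, and 4 genes are too few to set against these shares. Ifngr1, the ligand-binding chain of the interferon-gamma receptor, had an RPKM of 218 in 4T1-TB and 221 in IRF8-deficient, against 244 in NTB. It was the most highly expressed of the 50 genes in every library. Ifngr2, the chain that interferon-gamma signalling needs beside IFNGR1, had 14.9 in 4T1-TB and 29.0 in IRF8-deficient, against 15.6 in NTB. The IRF8-deficient level was thus 1.86-fold the NTB level (95% counting interval 1.73 to 1.99) and 1.95-fold the 4T1-TB level (1.78 to 2.14), while 4T1-TB stood at 0.951-fold of NTB (0.867 to 1.04). On the log2(RPKM + 1) scale its differences, 0.85 and 0.92, lay under the call. Ifnar1, a chain of the type I receptor, had 8.39 in 4T1-TB and 12.2 in IRF8-deficient, against 9.88 in NTB, a ratio to NTB of 0.849 (0.795 to 0.906) in 4T1-TB and 1.23 (1.16 to 1.30) in IRF8-deficient. Ifnar2, its partner chain, had 25.0 in 4T1-TB and 28.1 in IRF8-deficient, against 29.6 in NTB. The IRF8-deficient level of Ifnar2 was 0.947-fold that of NTB (0.899 to 0.996), so in the authors' scaling the chains of the type I receptor lay on either side of NTB. All 4 receptor genes were below NTB in 4T1-TB, by 0.07 to 0.24 on the log2(RPKM + 1) scale. Ifnar2, Ifnar1 and Ifngr2 are neighbours on chromosome 16, with 79.6 kb between Ifnar2 and Ifnar1 and 39.6 kb between Ifnar1 and Ifngr2, and Ifngr1 is on chromosome 10.

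Among the genes of signal transduction and RNA sensing, 2 of 7 were called higher in IRF8-deficient than in NTB. That was 28.6%, where 8.78% of all genes compared were. Zbp1, 1 of the 2, reached the minimum RPKM only through the IRF8-deficient library. Ddx58, which encodes the RNA sensor RIG-I, had an RPKM of 5.72 in 4T1-TB and 15.4 in IRF8-deficient, against 5.59 in NTB. IRF8-deficient stood 2.75-fold above NTB (2.56 to 2.96) and 2.69-fold above 4T1-TB (2.46 to 2.95), and the 4T1-TB and NTB levels differed by less than counting error. The Ddx58 difference from NTB of 1.31 fell below the call in 2 of 5 alternative settings, to 0.82 at the lowest. The other sensors of the same helicase family were not called. Ifih1, which encodes MDA5, had 5.93 in 4T1-TB and 8.71 in IRF8-deficient, against 8.29 in NTB, and Dhx58, which encodes LGP2, had 4.01 in 4T1-TB and 7.73 in IRF8-deficient, against 5.81 in NTB. Zbp1, a sensor of Z-form nucleic acids that can trigger necroptosis, had only 0.562 in 4T1-TB and 1.97 in IRF8-deficient, against 0.227 in NTB, from 27 reads in 4T1-TB and 111 in IRF8-deficient, against 22 in NTB. Its IRF8-deficient level was 8.65-fold that of NTB (5.44 to 14.4). Stat2, the STAT particular to type I and type III signalling, had 8.45 in 4T1-TB and 11.1 in IRF8-deficient, against 8.18 in NTB. Eif2ak2, which encodes the RNA-dependent kinase PKR, had 21.0 in 4T1-TB and 18.3 in IRF8-deficient, against 18.4 in NTB. Trim25, a ubiquitin ligase that acts on RIG-I, had 12.5 in 4T1-TB and 11.0 in IRF8-deficient, against 11.6 in NTB. Eif2ak2 and Trim25 belonged to the 15 of all 50 genes with an IRF8-deficient level below NTB.

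The OAS family was split. OAS proteins make 2′-5′-linked oligoadenylates from ATP when they meet double-stranded RNA, which activates the nuclease RNase L. Oas3 had an RPKM of 1.68 in 4T1-TB and 7.74 in IRF8-deficient, against 0.677 in NTB, from 176 reads in 4T1-TB and 953 in IRF8-deficient, against 143 in NTB. IRF8-deficient was 11.4-fold above NTB (9.58 to 13.7), and on the log2(RPKM + 1) scale this was the largest difference from NTB among the 43 genes, at 2.38. The 4T1-TB level of Oas3 was 2.48-fold that of NTB (1.98 to 3.12), and its difference of 0.68 was the highest in that comparison, though under the call. Oas2 had 1.33 in 4T1-TB and 6.28 in IRF8-deficient, against 0.890 in NTB, a ratio of IRF8-deficient to NTB of 7.06 (5.91 to 8.48). Oas2 and Oas3 lie 3.24 kb apart on chromosome 5. Oasl2 had 1.39 in 4T1-TB and 3.32 in IRF8-deficient, against 1.14 in NTB, or 2.92-fold above NTB in IRF8-deficient (2.39 to 3.57). By contrast Oas1a, the most highly expressed OAS gene in each library, had 11.9 in 4T1-TB and 11.0 in IRF8-deficient, against 10.1 in NTB. Its IRF8-deficient and NTB levels differed by less than counting error (ratio 1.09, 0.976 to 1.21). Oas1g had 2.74 in 4T1-TB and 3.85 in IRF8-deficient, against 2.16 in NTB. Reads of these near-identical paralogs may have been split or lost in the authors' counting, so their values are uncertain. Oasl1, which encodes a translational inhibitor of Irf7 in mice, went the other way at a low level, with 0.954 in 4T1-TB and 0.559 in IRF8-deficient, against 0.946 in NTB.

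In the ISG15 system, Isg15, a ubiquitin-like protein joined to other proteins during the interferon response, had an RPKM of 0.655 in 4T1-TB and 3.65 in IRF8-deficient, against 1.30 in NTB, from 11 reads in 4T1-TB and 72 in IRF8-deficient, against 44 in NTB. IRF8-deficient was 2.81-fold above NTB (1.90 to 4.18) and 5.57-fold above 4T1-TB (2.93 to 11.6). The IRF8-deficient difference from NTB, 1.02, only just made the call and fell below it in 3 of 5 alternative settings, to 0.46 at the lowest. In 4T1-TB the ratio to NTB was 0.504 (0.235 to 0.992). Usp18, the protease that removes ISG15 and restrains IFNAR2 signalling, stayed below 1 everywhere, with 0.254 in 4T1-TB and 0.778 in IRF8-deficient, against 0.126 in NTB, from 10 reads in 4T1-TB and 36 in IRF8-deficient, against 10 in NTB. Herc6, the mouse ligase for ISG15, had 3.39 in 4T1-TB and 4.50 in IRF8-deficient, against 4.24 in NTB, and was not called.

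The 12 antiviral effectors spanned RPKM values of 0.0372 to 56.4. Of the 9 that were compared, 4 were called higher in IRF8-deficient than in NTB (44.4%, where 8.78% of all genes compared were). Rsad2, which was called, and Ifit1, which was not, reached the minimum RPKM only through the IRF8-deficient library. Cmpk2, a nucleotide kinase of mitochondria, had an RPKM of 3.11 in 4T1-TB and 24.5 in IRF8-deficient, against 4.78 in NTB. IRF8-deficient was 5.12-fold above NTB (4.69 to 5.59) and 7.88-fold above 4T1-TB (6.86 to 9.10), and 4T1-TB was 0.650-fold of NTB (0.556 to 0.757). Rsad2, which encodes viperin, a radical SAM enzyme that makes a chain-terminating nucleotide, lies 12.8 kb from Cmpk2 on chromosome 12 and is transcribed away from it. Rsad2 had only 0.0952 in 4T1-TB and 1.27 in IRF8-deficient, against 0.0531 in NTB, from 8 reads in 4T1-TB and 126 in IRF8-deficient, against 9 in NTB. That is 24.0-fold above NTB in IRF8-deficient (12.3 to 53.7), with a wide interval from the few reads in NTB. Both genes of the pair were thus highest in IRF8-deficient, and they differed in 4T1-TB, where Cmpk2 was below NTB and the counting interval of the Rsad2 ratio to NTB (1.79, 0.602 to 5.24) included 1.

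Samd9l, a restriction factor for poxviruses and a growth suppressor of blood cells, had an RPKM of 15.2 in 4T1-TB and 56.4 in IRF8-deficient, against 16.3 in NTB. It was the most highly expressed of the 50 genes in IRF8-deficient after Ifngr1, at 3.46-fold of NTB (3.33 to 3.60). Trim12a, a mouse relative of the retroviral restriction factor TRIM5, had 7.12 in 4T1-TB and 28.0 in IRF8-deficient, against 7.70 in NTB, or 3.64-fold of NTB in IRF8-deficient (3.28 to 4.04). For both, 4T1-TB lay close to NTB, at 0.932-fold (0.881 to 0.986) for Samd9l and 0.924-fold (0.790 to 1.08) for Trim12a. Trim30a, in the same cluster of Trim genes on chromosome 7, had 18.0 in 4T1-TB and 12.6 in IRF8-deficient, against 16.8 in NTB, the opposite side of NTB from Trim12a. The Trim12 and Trim30 genes have close copies beside them, which makes both values uncertain. Bst2, which encodes tetherin, was lowest in IRF8-deficient as well, with 20.4 in 4T1-TB and 12.6 in IRF8-deficient, against 17.7 in NTB.

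The classical IFIT and MX genes, in contrast, were weakly expressed. Ifit1 had an RPKM of 0.358 in 4T1-TB and 1.15 in IRF8-deficient, against 0.406 in NTB. Ifit3 had 0.0901 in 4T1-TB and 0.230 in IRF8-deficient, against 0.134 in NTB, from 2 reads in 4T1-TB and 6 in IRF8-deficient, against 6 in NTB. Ifit2, which like the others encodes a tetratricopeptide protein that acts on viral RNA, was the exception with 9.75 in 4T1-TB and 18.6 in IRF8-deficient, against 10.9 in NTB, a ratio of IRF8-deficient to NTB of 1.71 (1.61 to 1.82). Mx1, a dynamin-like GTPase, had 0.151 in 4T1-TB and 0.515 in IRF8-deficient, against 0.405 in NTB, and Mx2 had 0.0372 in 4T1-TB and 0.174 in IRF8-deficient, against 0.184 in NTB. Neither reached 60 reads in a library. Isg20, an exonuclease for RNA, had 4.09 in 4T1-TB and 4.13 in IRF8-deficient, against 2.64 in NTB, and was one of the genes with levels above NTB in both.

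Of the PARP and DTX3L genes, Parp12, an ADP-ribosyltransferase that binds RNA, was called. It had an RPKM of 1.73 in 4T1-TB and 6.06 in IRF8-deficient, against 2.28 in NTB, and was 2.66-fold above NTB in IRF8-deficient (2.31 to 3.06). Its difference of 1.11 fell below the call in 3 of 5 alternative settings, to 0.60 at the lowest. Parp14, another enzyme of that family, had 4.83 in 4T1-TB and 9.46 in IRF8-deficient, against 5.75 in NTB. Parp9 and its partner Dtx3l, a ubiquitin ligase, overlap on opposite strands of chromosome 16. Parp9 had 8.67 in 4T1-TB and 10.8 in IRF8-deficient, against 9.74 in NTB, and Dtx3l had 21.0 in 4T1-TB and 20.5 in IRF8-deficient, against 21.8 in NTB. Whether the libraries were stranded is not stated, so reads in the overlap could belong to either gene.

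Among the other induced genes, Ifi27 and Ifi27l2a encode small hydrophobic proteins and have 1.93 kb between them on chromosome 12. Ifi27l2a had an RPKM of 0.816 in 4T1-TB and 6.64 in IRF8-deficient, against 1.57 in NTB, from 16 reads in 4T1-TB and 153 in IRF8-deficient, against 62 in NTB. Its IRF8-deficient level was 4.23-fold that of NTB (3.13 to 5.78) and 8.13-fold that of 4T1-TB (4.85 to 14.6). Ifi27 had 9.37 in 4T1-TB and 31.4 in IRF8-deficient, against 19.0 in NTB. At 0.494-fold of NTB (0.424 to 0.573), Ifi27 in 4T1-TB had the lowest difference of the 43 genes, −0.95, just short of the call, and IRF8-deficient was called higher than 4T1-TB at 3.35-fold (2.88 to 3.90). Both genes thus had the order IRF8-deficient, NTB, 4T1-TB. Rtp4, a chaperone first known for taste and opioid receptors, had 0.973 in 4T1-TB and 2.95 in IRF8-deficient, against 0.397 in NTB, from 34 reads in 4T1-TB and 121 in IRF8-deficient, against 28 in NTB, a ratio of IRF8-deficient to NTB of 7.41 (4.88 to 11.6). The 4T1-TB level of Rtp4 was also above NTB, at 2.45-fold (1.44 to 4.19). Ifi35 had 13.8 in 4T1-TB and 13.2 in IRF8-deficient, against 14.0 in NTB, a spread within counting error. Xaf1, which promotes apoptosis by binding XIAP, had 0.936 in 4T1-TB and 1.70 in IRF8-deficient, against 1.35 in NTB, and Lgals3bp, a secreted ligand of galectins, had 8.64 in 4T1-TB and 8.43 in IRF8-deficient, against 10.8 in NTB. Ifi44 stood at 0.0619 in 4T1-TB and 0.0527 in IRF8-deficient, against 0.407 in NTB, from 4 reads in 4T1-TB and 4 in IRF8-deficient, against 53 in NTB.

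The GTPases best known as targets of interferon-gamma were all 7 below NTB in 4T1-TB, with a median difference of −0.38 over the 6 compared. The 4 receptor genes and the 4 PARP and DTX3L genes were all below NTB there too. All 6 OAS genes and 5 of the 7 genes of signal transduction and RNA sensing were above NTB in 4T1-TB. In IRF8-deficient 1 of the 6 GTPase genes was called higher than in NTB (16.7%, where 8.78% of all genes compared were). Gbp2 was that gene, with an RPKM of 1.16 in 4T1-TB and 4.90 in IRF8-deficient, against 1.91 in NTB, or 2.56-fold of NTB in IRF8-deficient (2.15 to 3.07). Its difference of 1.02 fell below the call in 3 of 5 alternative settings, to 0.52 at the lowest, which left none of the GTPase genes called higher. Gbp3 and Gbp7, its neighbours on chromosome 3, were highest in NTB. Gbp3 had 10.9 in 4T1-TB and 8.23 in IRF8-deficient, against 16.4 in NTB, which put IRF8-deficient at 0.502-fold of NTB (0.459 to 0.548) and made it the lowest of the 43 genes in that comparison, at −0.92. Gbp7 had 8.20 in 4T1-TB and 9.13 in IRF8-deficient, against 12.9 in NTB. The immunity-related GTPases, which act on the vacuoles of intracellular pathogens, had moderate levels. Irgm1 had 10.3 in 4T1-TB and 11.3 in IRF8-deficient, against 12.9 in NTB, and Igtp had 5.56 in 4T1-TB and 7.88 in IRF8-deficient, against 7.27 in NTB. Irgm2 had 3.17 in 4T1-TB and 5.71 in IRF8-deficient, against 3.69 in NTB. Igtp and Irgm2 overlap in the annotation, so their reads may be shared. Iigp1 had no read in 4T1-TB, which allows up to 3, and 37 in IRF8-deficient, against 12 in NTB.

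**Figure D3:**
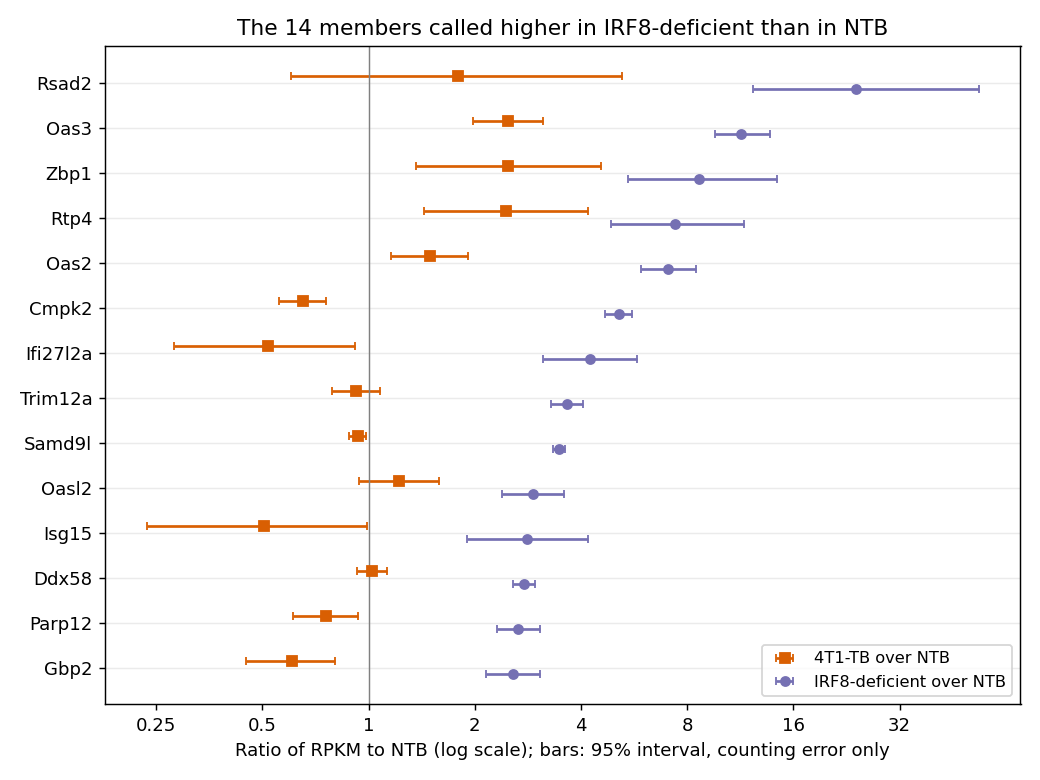
Ratio of RPKM to NTB on a log axis for the 14 genes called higher in IRF8-deficient than in NTB, drawn for both other libraries, with 95% intervals for counting error only. The lower ends of the IRF8-deficient intervals run from 1.90 for Isg15 to 12.3 for Rsad2, while the 4T1-TB ratios run from 0.504 for Isg15 to 2.48 for Oas3 and Zbp1.

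Among the 14 called genes, ratios of IRF8-deficient to NTB ran from 2.56 for Gbp2 to 24.0 for Rsad2. Those under an RPKM of 1 in NTB, namely Rsad2, Zbp1, Rtp4, Oas2 and Oas3, had the 5 largest ratios. On the log2(RPKM + 1) scale a gene this low in NTB is called only at a ratio well above 2. The call itself thus favours large ratios among these genes, though it does not alone fix the order. They were also the 5 with a 4T1-TB ratio to NTB above 1.4. Of the other 9 genes, Cmpk2, Ifi27l2a, Isg15, Parp12, Gbp2 and Samd9l had 4T1-TB counting intervals wholly below 1, with upper ends close to 1 for Isg15 (0.992) and Samd9l (0.986). Both ratios have the NTB level below the line, so they are not independent.

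The pathway around these genes was read from lists. Interferon transcripts were found only as traces at this depth. Each of 21 ligand genes had an RPKM under 1 in every library, and 20 of 21 in 4T1-TB and in IRF8-deficient and 19 of 21 in NTB were listed at 0. Of 15 genes of signalling and feedback, none was called in 4T1-TB against NTB, where 3.02% of all genes compared were (median difference 0.12). In IRF8-deficient against NTB 4 were higher (26.7%) and none lower, where 8.78% and 5.73% of all genes compared were (median 0.50). Irf7, which drives type I interferon genes, had an RPKM of 1.31 in 4T1-TB and 6.84 in IRF8-deficient, against 1.07 in NTB, and stood at 6.40-fold of NTB in IRF8-deficient (5.42 to 7.59). Ifnlr1, the specific chain of the type III interferon receptor, had 0.808 in 4T1-TB and 18.7 in IRF8-deficient, against 0.390 in NTB. This was the largest difference among the 15, at 3.83 on the log2(RPKM + 1) scale. Ifnlr1 reached the minimum RPKM only through the IRF8-deficient library and so had to be high there. Ptpn6, which encodes the phosphatase SHP-1, had 89.9 in 4T1-TB and 186 in IRF8-deficient, against 78.1 in NTB. The kinase genes were not called, with Jak1 at 41.1 in 4T1-TB and 59.1 in IRF8-deficient, against 37.2 in NTB, and Tyk2 at 17.5 in 4T1-TB and 14.8 in IRF8-deficient, against 18.4 in NTB. Irf9, the DNA-binding part of the type I complex, had 6.15 in 4T1-TB and 12.6 in IRF8-deficient, against 10.1 in NTB.

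Among 12 adaptors and kinases of nucleic acid sensing, Myd88 alone was called, and in 4T1-TB (8.33% higher, where 1.67% of all genes compared were). Myd88 encodes an adaptor of Toll-like receptors and had an RPKM of 40.4 in 4T1-TB and 36.7 in IRF8-deficient, against 18.0 in NTB. Its IRF8-deficient difference of 0.99 lay just under the call, with IRF8-deficient at 0.908-fold of 4T1-TB (0.849 to 0.970). A further list held other interferon-stimulated genes, 41 of which were compared. In 4T1-TB against NTB none of them was higher and 2 were lower (4.88%, where 1.35% of all genes compared were), with a median of −0.27. These were Epsti1 (1.07 in 4T1-TB, against 3.25 in NTB) and the GTPase gene Tgtp2 (0.927 in 4T1-TB, against 3.87 in NTB). In IRF8-deficient against NTB 7 were higher (17.1%) and 1 was lower (2.44%), where 8.78% and 5.73% of all genes compared were, and their median was 0.38. Tlr7, a receptor for single-stranded RNA, had 0.702 in 4T1-TB and 8.78 in IRF8-deficient, against 0.959 in NTB, and Ifit1bl2, a relative of Ifit1, had 0.268 in 4T1-TB and 4.25 in IRF8-deficient, against 0.113 in NTB. Tlr7, Ifit1bl2 and Gbp9, all among the 7, reached the minimum RPKM only through the IRF8-deficient library and so had to be high there. Epsti1, lower in 4T1-TB, was among the higher ones at 2.46-fold of NTB (2.14 to 2.84). Ddx60, a helicase gene, had 1.01 in 4T1-TB and 5.88 in IRF8-deficient, against 1.80 in NTB. Ube2l6, the conjugating enzyme for ISG15, had 4.71 in 4T1-TB and 21.2 in IRF8-deficient, against 6.89 in NTB. The lower gene was Ly6e, a membrane protein gene, with 209 in 4T1-TB and 74.6 in IRF8-deficient, against 253 in NTB.

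Markers of other blood cells were set beside these levels. The 11 dendritic cell genes, including those of plasmacytoid cells, which are strong interferon producers, summed to an RPKM of 5.28 in 4T1-TB and 4.37 in IRF8-deficient, against 6.29 in NTB, and Ccr9, Klk1 and Cd209a were listed at 0 in all 3. Tcf4, with 4.10 in 4T1-TB and 2.74 in IRF8-deficient, against 4.72 in NTB, made up most of that sum. Clec9a and Itgax went the other way in IRF8-deficient at levels below 1, Clec9a with 0.0547 in 4T1-TB and 0.523 in IRF8-deficient, against 0.0678 in NTB, and Itgax with 0.168 in 4T1-TB and 0.314 in IRF8-deficient, against 0.0555 in NTB. The 15 monocyte and macrophage genes summed to 212 in 4T1-TB and 275 in IRF8-deficient, against 375 in NTB. In 4T1-TB 6 of the 12 compared were called lower than in NTB (Csf1r, Cx3cr1, Irf5, Klf4, Ly86 and Ms4a6c) and none higher, beside the interferon genes that lay below NTB there. Of all genes compared, 1.35% were called lower in 4T1-TB than in NTB. In IRF8-deficient 4 of the 12 were called lower (Cd14, Klf4, Ly86 and Vcam1) and Adgre1, with 1.05 in 4T1-TB and 9.22 in IRF8-deficient, against 2.39 in NTB, was called higher. The shares over all genes compared were 5.73% lower and 8.78% higher in IRF8-deficient than in NTB. Vcam1, with 71.3 in 4T1-TB and 10.5 in IRF8-deficient, against 99.6 in NTB, held most of the gap between the IRF8-deficient and NTB sums, while F13a1 and Ccr2 were above NTB in IRF8-deficient. The 8 B cell genes summed to 12.9, 13.2 and 17.4 in 4T1-TB, IRF8-deficient and NTB. Cd79b made up most of each sum, with 12.3 in 4T1-TB and 10.3 in IRF8-deficient, against 16.4 in NTB. The other 7 were low but above NTB in IRF8-deficient, among them Pax5 with 53 reads there and 0 in 4T1-TB and NTB. None of the B cell genes was called. Of 10 T and NK cell genes, Cd3e was at 0 throughout and Nkg7 made up nearly the whole sum of 436 in 4T1-TB and 153 in IRF8-deficient, against 421 in NTB. Erythroid and megakaryocyte genes summed to at most 2.17. The sum of the 18 neutrophil genes and the share of Rn45s were highest in IRF8-deficient, by the values given above. In 4T1-TB 9 of the 18 neutrophil genes and none of the interferon genes compared were called higher than in NTB. The part of these markers in the differences was not tested.

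The promoters of the genes were searched for the sequences that interferon-activated factors bind. Windows of 250 bases before to 50 bases after the annotated start, from RefSeq on GRCm38.p6, were found for 38 of the 50 genes. The interferon-stimulated response element was written GAAANNGAAA and searched on both strands. It was present in at least 1 window of 20 of the 38 genes (52.6%), against 3.99% of 27025 genes with a window. Among the genes compared here that had a window, the share was 3.88%. None of the 4 receptor genes held it. The gamma-activated site, TTCNNNGAA, was present in 11 of the 38 (28.9%), against 9.55% of all genes, and the composite of a PU.1 and an IRF site, GGAANNGAAA, which ends in the same letters as the response element and can overlap it, in 7 (18.4%), against 3.16%. Of the 14 genes called higher in IRF8-deficient, 10 had a window, and 6 of these held the response element (Ddx58, Gbp2, Isg15, Oas3, Rsad2 and Trim12a) and 0 the gamma-activated site. Of the 29 genes compared and not called, 25 had a window, 13 of these held the response element and 11 the gamma-activated site. A match is a description of letters and not a bound site, and a window without one says nothing about a factor. The stretches of 150 bases just before the start of 6 genes are shown, with matches to the response element in capitals, to place the called genes with a match (Rsad2, Oas3, Isg15) beside called genes without one (Cmpk2, Samd9l) and a gene with matches and no call (Oas1a). They are chr12:26456453-26456602 on the minus strand for Rsad2, chr5:120777660-120777809 minus for Oas3, chr4:156200819-156200968 minus for Isg15, chr12:26469065-26469214 plus for Cmpk2, chr6:3399572-3399721 minus for Samd9l and chr5:120907526-120907675 minus for Oas1a, each read along the gene's own strand.
Rsad2: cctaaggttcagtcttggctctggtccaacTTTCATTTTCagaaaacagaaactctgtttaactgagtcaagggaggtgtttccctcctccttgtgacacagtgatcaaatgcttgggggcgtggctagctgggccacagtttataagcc
Oas3: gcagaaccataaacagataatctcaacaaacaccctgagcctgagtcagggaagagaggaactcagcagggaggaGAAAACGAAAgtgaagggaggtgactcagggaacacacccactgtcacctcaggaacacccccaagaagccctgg
Isg15: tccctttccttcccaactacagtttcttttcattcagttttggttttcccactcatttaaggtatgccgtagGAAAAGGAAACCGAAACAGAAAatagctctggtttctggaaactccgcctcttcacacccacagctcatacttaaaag
Cmpk2: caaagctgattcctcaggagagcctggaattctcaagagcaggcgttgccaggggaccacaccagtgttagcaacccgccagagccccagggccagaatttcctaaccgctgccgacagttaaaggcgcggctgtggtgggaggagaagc
Samd9l: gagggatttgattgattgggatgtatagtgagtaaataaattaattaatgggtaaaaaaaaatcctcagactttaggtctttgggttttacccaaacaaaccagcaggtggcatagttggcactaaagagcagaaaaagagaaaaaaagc
Oas1a: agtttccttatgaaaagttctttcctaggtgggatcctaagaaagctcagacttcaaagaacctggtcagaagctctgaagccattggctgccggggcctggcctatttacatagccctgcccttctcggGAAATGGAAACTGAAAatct

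Isg15 carried 3 overlapping matches, the most in any window of the 38 genes, in 1 run whose first match begins 78 bases before the start. Oas1a carried 2 overlapping matches close to its start, beginning 20 and 14 bases before it, and its RPKM lay between 10.1 and 11.9 in the 3 libraries. Rsad2 had 1 match on the opposite strand, 120 bases before the start, and Oas3 had 1, 75 bases before it. Cmpk2 and Samd9l, with ratios of IRF8-deficient to NTB of 5.12 and 3.46, had no match in the whole window. Presence of the element did not separate called from uncalled genes in these windows, being found in 6 of 10 and in 13 of 25.

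**Figure D4:**
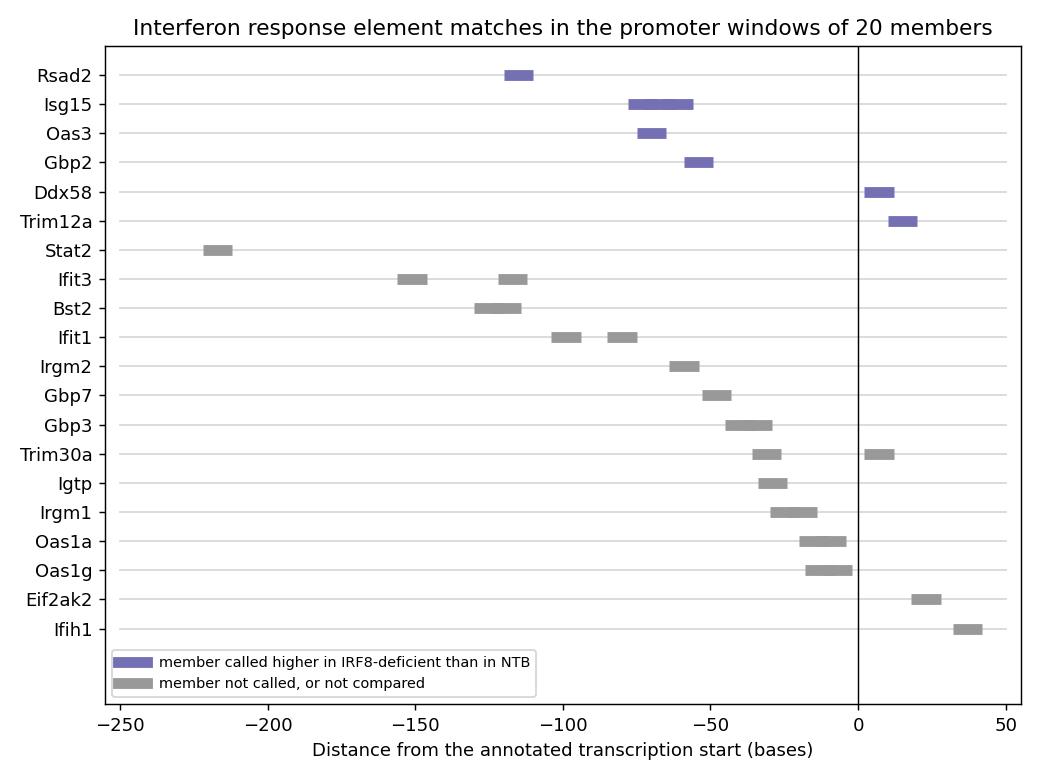
Position of each match to the interferon-stimulated response element in the promoter windows of the 20 genes that hold one, in bases from the annotated start, colored for genes called higher in IRF8-deficient than in NTB. Matches of called genes lie between 120 bases before and 20 bases after the start, within the spread of the uncalled genes.

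How the libraries are scaled bears on the levels in IRF8-deficient. The 20 most abundant genes took 15.5% of reads in 4T1-TB and 30.1% in IRF8-deficient, against 10.3% in NTB. The library sizes that the authors' RPKM imply relative to the recovered reads were 0.943 in 4T1-TB and 0.719 in IRF8-deficient, against 1.05 in NTB. Scaling by the recovered reads instead moved the median of all genes compared by −0.49 in IRF8-deficient against NTB and by −0.14 in 4T1-TB against NTB. Under it the interferon genes in IRF8-deficient had a median of −0.10, which was 0.41 above that of all genes, where it was 0.52 above with RPKM as deposited. The count called higher was then 8 and 1 gene, Gbp3, was lower, while over all genes compared 4.29% were higher and 18.8% lower, where 8.78% and 5.73% were with RPKM as deposited. Rescaling without the 20 highest genes gave 6.77% higher and 8.74% lower. Scaling by recovered reads gave 1.45% higher and 1.98% lower over all genes in 4T1-TB against NTB, and 4.70% and 14.8% in IRF8-deficient against 4T1-TB. Oas3 (chr5:120753098-120777661), Cmpk2 (chr12:26469204-26479837), Samd9l (chr6:3372257-3399572) and Trim12a (chr7:104299894-104315466, all mm10, GENCODE M21) were called higher in IRF8-deficient than in NTB under each pseudocount and scaling tried. Of the other 10 called genes, Oasl2, Isg15, Parp12 and Gbp2 fell below the call in 3 of these 5 settings (a pseudocount of 5, rescaling without the 20 highest genes and scaling by recovered reads). Ddx58 and Rsad2 fell below it with that pseudocount and with recovered reads, and Zbp1, Oas2, Ifi27l2a and Rtp4 with that pseudocount only. The medians of the receptor, RNA sensing and PARP groups in IRF8-deficient against NTB, 0.10, 0.36 and 0.38, became −0.42, −0.12 and −0.11 under scaling by recovered reads, and those of the OAS group and of the antiviral effectors, 1.01 and 0.72, became 0.65 and 0.38.

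**Figure D5:**
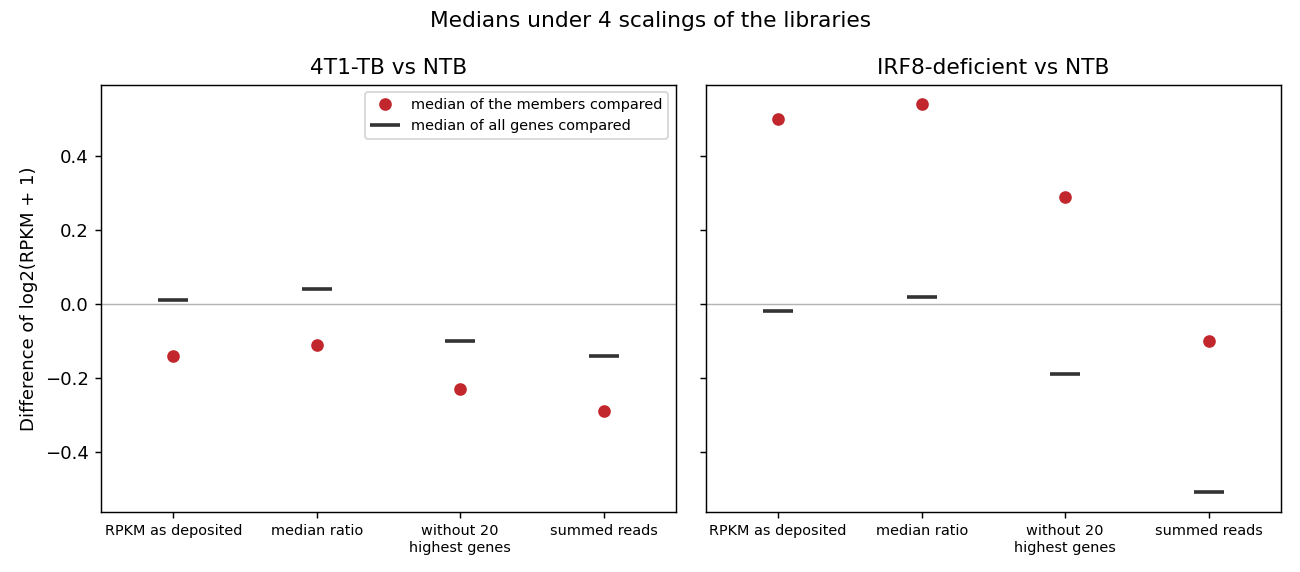
Median difference of log2(RPKM + 1) under 4 ways of scaling the libraries, for the interferon genes compared (points) and for all genes compared (bars), in 4T1-TB against NTB and in IRF8-deficient against NTB. In IRF8-deficient the interferon genes lie above all genes under each scaling, by 0.41 to 0.52, and in 4T1-TB they lie below, by 0.13 to 0.15.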

How the data were processed

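RNA was sequenced from granulocyte progenitors in 3 libraries, grouped by the mouse model in the labels. The deposited values are RPKM, made by the authors for 24421 symbols. The submitters' processing notes name TopHat2 2.0.13, HTSeq 0.6.1, edgeR 3.12.1, CASAVA 1.8.2, cutadapt 1.2.1 and Picard 1.97 with the build mm10, without their roles. The sources used here do not state the annotation or the form of library size.

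Whole reads were recovered per gene, because its RPKM values formed whole-number ratios between libraries (relative tolerance 1e-13). Implied gene lengths were whole within 0.02 bases for 99.6% of genes with 10 or more reads, and 86.2% of 14659 genes were within 10% of a reference length, as were 43 of the 50 described. That reference (GENCODE M21, mm10) also helped to fix a common factor, so it is no independent check. Reads gave depth, exact Poisson and Clopper-Pearson 95% intervals, the floor of 3 reads for a count of 0, and 1 scaling. The steps were tested on simulated data.

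With 1 library per group no test was made. The 50 genes, the other lists and the roles were chosen with earlier results of these data known. All 50 genes could be named, with ratios for called genes and receptor genes. Other pathway genes were named where called in any comparison, at most 6 per list, besides Jak1, Tyk2, Irf9 and Irf7, and 1 called gene of the signalling list is not reported here. Tgtp2, Gbp9, single marker genes and ratios of further genes were added after their values were seen. Alternatives were pseudocounts of 0.1 and 5, 3 scalings, no minimum or an RPKM minimum of 5, a call at 4-fold, and a call that also needs an interval excluding 1. Sequences came from RefSeq. Scripts ran on pandas 2.3.3, scipy 1.17.1, matplotlib 3.10.9 and numpy 2.4.6 under Python 3.11.15.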

Additional observations from a re-analysis of the deposited data

How the results depend on the processing

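For 4T1-TB against NTB, a pseudocount of 0.1 gave 3 genes called higher (Oas3, Rtp4 and Zbp1) and 1 lower (Ifi27). Of all genes compared, 2.65% were then higher and 3.32% lower. Ifi27 was also the 1 gene lower after rescaling without the 20 highest genes and after scaling by summed reads, where the median was −0.29. Over all genes compared, 1.66% and 1.98% were lower under these scalings, in that order. For IRF8-deficient against NTB, the count called higher was 4 with a pseudocount of 5, where 4.94% of all genes compared were. It was 8 with summed reads (4.29% of all genes) and 8 of 32 genes with a minimum RPKM of 5 (9.29%). At 4-fold it was 2 (Cmpk2 and Oas3), where 1.90% of all genes were. Gbp3 was the 1 gene called lower without the 20 highest genes and with summed reads, where 8.74% and 18.8% of all genes were. The median was 0.62 and 0.26 with pseudocounts of 0.1 and 5, 0.29 without the 20 highest genes and 0.38 with no minimum. It was 0.20 with a minimum of 5 and turned to −0.10 with summed reads, which shifted all genes by −0.49. Its excess over the median of all genes compared was 0.52 in the main setting, and 0.64 and 0.27 with those pseudocounts. With a minimum of 5 the excess was 0.19. For IRF8-deficient against 4T1-TB, 5 were higher with a pseudocount of 5 (4.46% of all genes) and 2 at 4-fold (1.67%). With summed reads 1 gene (Bst2) was lower, where 14.8% of all genes were. The median was 0.79 and 0.30 with pseudocounts of 0.1 and 5 and 0.14 with summed reads. Median ratio scaling and the call that also needs an interval excluding 1 moved no count by over 1.5 times. Differences of single genes, 150 per setting, moved by more than their counting interval in 2 with median ratio scaling and in 84 with summed reads. No paired analysis was possible because each group has 1 library. Depth limits Ifit3, Mx2, Ifi44, Usp18 and Iigp1 most, with 53 reads or fewer each. Genotype, strain and library cannot be told apart.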
